A study of Homo sapiens with 4 samples.

Results

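The 4 genes of the human oligoadenylate synthetase (OAS) family, OAS1, OAS2, OAS3 and OASL, were taken by their gene symbols from the deposited transcript tables of HT-29 cells, and each was read as the sum over its transcripts and as single isoforms. The 4 genes hold 11 of the 63714 listed transcripts and are 4 of the 27685 listed genes. HT-29 is a human colon cancer cell line, and the cells stably carried either a control vector (Mock, labelled genotype WT) or a vector for TRIM40 with a Myc tag at its N-terminus (Myc-TRIM40, labelled TRIM40 overexpression). TRIM40 is a tripartite motif ubiquitin ligase that is close to silent in these cells. The study's general methods describe viral transduction with polybrene, then selection with puromycin. No treatment beyond that is named for either group. The 2 libraries of each group came from 2 independent experiments, each with 1 Mock and 1 Myc-TRIM40 library, and the sources used here do not say whether a line was 1 clone or a pool of transduced cells. The comparison asks how the RNA of the OAS genes differed between Myc-TRIM40 and Mock cells in each experiment.

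OAS proteins belong to the antiviral response of the cell. OAS1, OAS2 and OAS3 bind double-stranded RNA and then join ATP into short chains linked from the 2' to the 5' position (2-5A), a second messenger that leads to the decay of viral and cellular RNA. OASL resembles the other members but has lost the synthetase activity, carries ubiquitin-like domains and is known to strengthen signalling by the RNA sensor RIG-I. All 4 genes are well known to be induced by interferons, through factors that bind promoter elements of the interferon-stimulated response type.

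The libraries held between 60954602 and 67424698 reads. TRIM40 had 0 reads in both Mock libraries and 272646 (experiment 1) and 110665 (experiment 2) in the Myc-TRIM40 libraries, so the labels matched the expressed gene. Epithelial markers were present in every library, with KRT8 between 3355 and 4435 FPKM (the authors' level per transcript length and library size) and EPCAM between 322 and 621 FPKM. The 11 epithelial markers summed to 7154 and 8259 FPKM in Mock and Myc-TRIM40 of experiment 1 and to 9921 and 8494 FPKM in experiment 2. CDX1, an intestinal transcription factor, was at 0.41 FPKM or lower in every library. CDX2 and CEACAM5 were also low, at 1.22 to 1.39 FPKM and at 1.36 to 2.66 FPKM. Of 11 markers of immune, endothelial and stromal cells, 4 were at 0 reads in all libraries, the T cell gene CD3E, the macrophage gene CSF1R and the stromal genes COL1A2 and DCN. Lysozyme (LYZ) was the only one of them at a high level, with 1356 to 1860 FPKM. The other 10 summed to 2.14 and 3.48 FPKM in Mock and Myc-TRIM40 of experiment 1 and to 2.99 and 2.58 FPKM in experiment 2. Most of each sum was CD14, at 1.43 to 2.61 FPKM. In bulk RNA, a larger share of cells with an active gene and more RNA per cell cannot be told apart.

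OAS1, OAS3 and OAS2 lie side by side on chromosome 12 in that order. In hg19, the build named in the submitters' processing notes, the listed transcripts of OAS1 span bases 113344582 to 113369995, those of OAS3 span 113376238 to 113411055 and those of OAS2 span 113416274 to 113449528. OASL lies apart on the same chromosome, from base 121458095 to base 121477045. No other listed transcript overlaps any of the 4. RefSeq start-site windows (GRCh38.p14) were at hand for OAS1 and OAS3, and are shown because both genes were higher in Myc-TRIM40 cells in both experiments. The 250 bases before each start are printed on the plus strand, from chr12:112906712-112906961 for OAS1 and chr12:112938224-112938473 for OAS3. Capitals mark matches of AANNGAAA on either strand, the core that interferon regulatory factors read, a motif chosen after these windows were seen.
OAS1: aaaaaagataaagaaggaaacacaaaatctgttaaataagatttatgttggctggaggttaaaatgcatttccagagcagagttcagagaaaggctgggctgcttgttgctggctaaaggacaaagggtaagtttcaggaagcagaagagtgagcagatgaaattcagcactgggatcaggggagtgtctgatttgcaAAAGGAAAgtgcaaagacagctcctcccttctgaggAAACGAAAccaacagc
OAS3: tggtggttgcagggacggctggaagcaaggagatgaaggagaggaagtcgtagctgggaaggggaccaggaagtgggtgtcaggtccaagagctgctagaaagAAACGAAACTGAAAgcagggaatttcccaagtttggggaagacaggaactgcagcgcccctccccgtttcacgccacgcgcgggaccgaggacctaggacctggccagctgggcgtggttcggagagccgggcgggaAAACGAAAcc

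Both windows held the motif close to the start, OAS1 at positions -16 to -9 and OAS3 at positions -10 to -3, counted from the first transcribed base with no position 0. OAS1 held 2 matches and OAS3 held 3, of which a pair overlapped between positions -147 and -134. The longer interferon-stimulated response element (ISRE), written here as GAAA, 2 bases of any kind and GAAA again, always contains the shorter motif. This spelling matched 2 times in OAS3 and 0 times in OAS1. The 0 holds for this spelling only. In OAS1 the stretch GAAACGAAA ends at position -9, and its GAAA units are less than 2 bases apart, which this spelling cannot match. Of all 27305 promoter windows cut in the same way, 20.6% held AANNGAAA and 3.07% held the ISRE, and over the tested genes with a window the shares were 14.7% and 2.30%. A match of these letters is a description of the sequence, and binding was not measured.

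The summed level of the family was higher in Myc-TRIM40 cells in both experiments. The 4 genes together went from 43.0 FPKM in Mock to 420.6 FPKM in Myc-TRIM40 in experiment 1, a ratio of 9.79, and from 24.2 to 65.6 FPKM in experiment 2, a ratio of 2.71. The median log2 ratio of reads, scaled to library size, over the 4 genes was 3.10 for experiment 1 and 1.31 for experiment 2, and over all 14868 tested genes it was 0.0015 and 0.028. In the edgeR fit over both experiments the median log2 fold change of the 4 genes was 2.21, and that of all tested genes was 0.037. OAS1, OAS2 and OAS3 are on the list of commonly increased genes that the study drew from these same libraries, so their direction is not independent evidence. The study also ran microarrays and quantitative PCR on HT-29 cells with TRIM40, and those data were not used here.

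OAS1 makes the smallest of the active synthetases. It was at 13.6 FPKM in Mock and 115.1 FPKM in Myc-TRIM40 of experiment 1, and at 11.1 FPKM in Mock and 26.8 FPKM in Myc-TRIM40 of experiment 2. Both Myc-TRIM40 levels lay above both Mock levels, and the Mock libraries were close to each other. In reads, OAS1 went from 1425 to 12570 and from 1328 to 2960. After scaling for library size these are 8.59-fold and 2.21-fold higher values.

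OAS2, a membrane-associated synthetase with a catalytically active and an inactive OAS unit, was the lowest member in Mock cells and had the widest gap between the groups. It was at 2.01 FPKM in both Mock libraries, at 102.5 FPKM in Myc-TRIM40 of experiment 1 and at 9.44 FPKM in Myc-TRIM40 of experiment 2. The groups did not overlap. Its reads went from 386 to 20917, 52.8-fold after scaling, and from 379 to 1780, 4.65-fold. Its share of the summed FPKM of the family was 4.69% in Mock and 24.4% in Myc-TRIM40 of experiment 1, against 8.28% and 14.4% in experiment 2.

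OAS3 makes the largest protein, with an active unit behind inactive ones, and is known as the main source of 2-5A in human cells. It had the most reads of the family in every library, with 7773 in Mock and 68741 in Myc-TRIM40 of experiment 1 and 3708 and 10476 in experiment 2. Per length it was at 18.7 FPKM and 165.1 FPKM in experiment 1 and at 8.05 and 24.6 FPKM in experiment 2, with no overlap between the groups. The folds in reads were 8.61 and 2.80, close to those of OAS1. Its Mock level was 2.33 times higher in experiment 1 than in experiment 2.

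OASL, the member without synthetase activity, differed least. It was at 8.60 FPKM in Mock and 37.8 FPKM in Myc-TRIM40 of experiment 1, and at 3.09 FPKM in Mock and 4.83 FPKM in Myc-TRIM40 of experiment 2. Here the groups overlapped, since Myc-TRIM40 of experiment 2 lay below Mock of experiment 1. The folds within an experiment were 4.32 and 1.43 in reads, and the Mock level was 2.78 times higher in experiment 1 than in experiment 2. OASL was not on the study's RNA sequencing list.

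**Figure D1:**
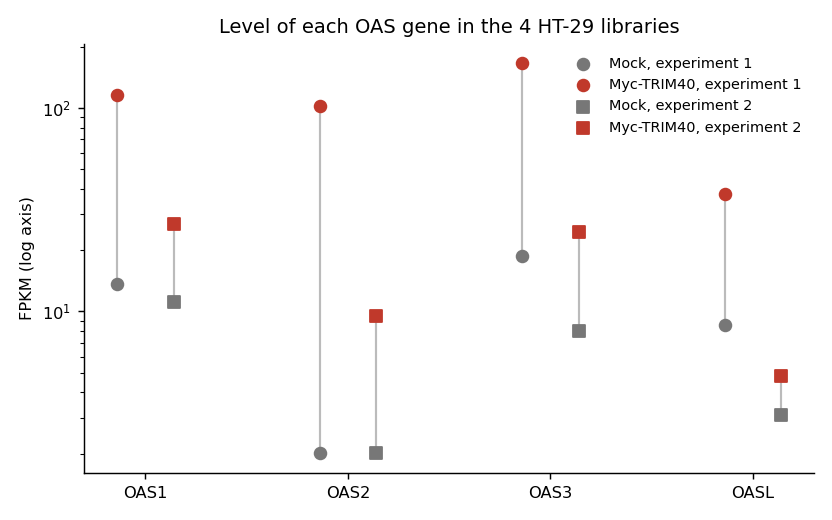
FPKM of each OAS gene (vertical log axis) in the 4 libraries, with circles for experiment 1, squares for experiment 2, gray for Mock and red for Myc-TRIM40, and a line joining the 2 libraries of an experiment. OAS2 goes from 2.01 FPKM in both Mock libraries to 102.5 and 9.44 FPKM, and the OASL value of Myc-TRIM40 in experiment 2, 4.83 FPKM, sits below that of Mock in experiment 1, 8.60 FPKM.

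In order of level, OAS3 and OAS1 were the highest members in every library. OAS3 led in both libraries of experiment 1 and OAS1 led in both of experiment 2, so the order of these neighbours did not hold across experiments. OASL was above OAS2 in both Mock libraries and below it in both Myc-TRIM40 libraries. Among genes with FPKM above 0, OAS2 stood at percentiles 36.0 and 38.3 in Mock and at percentiles 95.9 and 61.4 in Myc-TRIM40 of experiments 1 and 2.

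None of the 4 genes passed an adjusted p of 0.05 in the edgeR quasi-likelihood fit with the experiment as a block, although all 4 fitted changes were positive. The fitted log2 fold changes were 2.12 (SE 0.43) for OAS1, 3.98 (SE 0.77) for OAS2, 2.30 (SE 0.37) for OAS3 and 1.33 (SE 0.36) for OASL. The edgeR adjusted p-values were 0.351, 0.293, 0.143 and 0.752 in the same order. That rule called 0.0404% of all tested genes higher, 6 genes. At an unadjusted edgeR p under 0.05, 4 of the 4 members were higher, where 3.41% of tested genes were. DESeq2 with the same design called 2 of the 4 members higher, OAS1 with an adjusted p of 9.95e-06 and OAS3 with an adjusted p of 1.74e-08, where it called 0.303% of tested genes. In DESeq2 the adjusted p was 0.454 for OAS2 and 0.0618 for OASL. With 1 library left out, edgeR was fitted without a block, so these fits change both the libraries and the design. Without the Myc-TRIM40 library of experiment 2, edgeR called all 4 members, with log2 fold changes between 2.64 and 5.76, where it called 0.633% of tested genes, 97 genes. Without the Myc-TRIM40 library of experiment 1, OASL was at -0.33 and 0 members were called.

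The study took ratios of FPKM + 1 within each experiment and asked for 1.5 or more. By that form, 3 of the 4 members were higher in both experiments, where 0.26% of all listed genes were. The ratios were 7.93 and 2.30 for OAS1, 34.3 and 3.47 for OAS2 and 8.43 and 2.83 for OAS3. OASL had ratios of 4.05 and 1.42 and missed the rule in experiment 2. With a pseudocount of 0.1 all 4 passed, where 1.37% of listed genes did, and with TPM + 1 all 4 passed, where 0.675% did. With a mean FPKM of at least 1, with median-centred ratios or with a fold of 2, 3 of the 4 passed. Both Myc-TRIM40 libraries lay above both Mock libraries in FPKM for 3 of the 4 members and for 15.2% of tested genes.

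The size of the change differed between the experiments for every member. The log2 ratio of scaled reads was larger in experiment 1 by 1.96 for OAS1, 3.50 for OAS2, 1.62 for OAS3 and 1.59 for OASL. With 1 library per group in each experiment, this difference has no test. TRIM40 itself had 2086 FPKM in Myc-TRIM40 of experiment 1 and 827 FPKM in that of experiment 2. Its part in the difference was not tested.

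**Figure D2:**
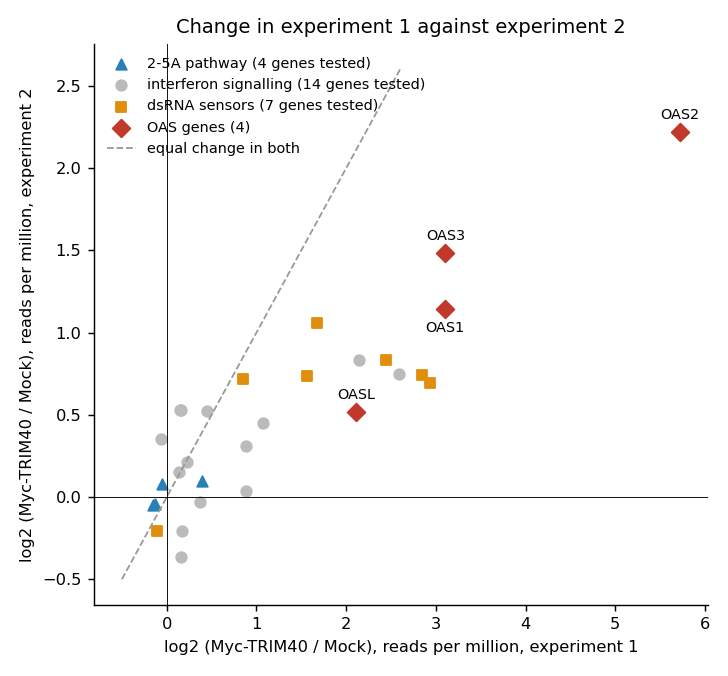
Log2 ratio of Myc-TRIM40 to Mock in reads scaled to library size, experiment 1 on the horizontal axis and experiment 2 on the vertical axis, for the OAS genes (red diamonds) and the tested genes of 3 related lists, each point 1 gene. All 4 OAS genes sit to the right of the dashed line of equal change, OAS2 farthest at 5.72 and 2.22, while the 4 genes of the 2-5A pathway sit near 0 on both axes.

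Isoforms of a gene share most exons, so the authors' reads per isoform are estimates, and the counting intervals below cover counting error only. OAS1 has 4 listed isoforms that differ at the 3' end of the transcript and the C-terminus of the protein. NM_016816, whose protein ends in a prenylation motif that ties it to membranes, had 63 reads in Mock and 7236 in Myc-TRIM40 of experiment 1, and 632 and 1233 in experiment 2. Its share of OAS1 reads was 4.42% (95% Wilson interval 3.47 to 5.62) in Mock and 57.6% (56.7 to 58.4) in Myc-TRIM40 of experiment 1. In experiment 2 the share was 47.6% (44.9 to 50.3) in Mock and 41.7% (39.9 to 43.4) in Myc-TRIM40, so the direction was not shared. The Mock libraries of the 2 experiments thus differed by more than the counting error in how OAS1 reads were assigned.

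In scaled reads NM_016816 was 112-fold and 2.02-fold higher in Myc-TRIM40 of experiments 1 and 2. The other OAS1 isoforms were also higher in Myc-TRIM40 in both experiments. NM_002534 went from 871 to 3955 reads and from 513 to 1104 reads. NM_001032409 went from 491 to 1119 and from 183 to 544 reads. NM_001320151 had 0 reads in both Mock libraries and 260 and 79 reads in Myc-TRIM40, which is at least 84.9-fold and at least 27.3-fold higher against a floor of 3 reads per library. It was the only OAS1 isoform with 0 reads in any library, and in Myc-TRIM40 it took 2.07% and 2.67% of OAS1 reads.

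OAS2 has 3 listed isoforms, of which NM_016817 and NM_002535 encode the long proteins and NM_001032731 a much shorter one. NM_002535 had 243 reads in Mock and 10384 in Myc-TRIM40 of experiment 1, and 19 and 910 in experiment 2, 41.8-fold and 49.7-fold, the nearest match between experiments of the OAS2 isoforms. NM_016817 went from 43 to 7459 and from 193 to 304 reads, 170-fold and 1.63-fold. NM_001032731 went from 100 to 3074 and from 167 to 566 reads, 30.1-fold and 3.52-fold. NM_002535 held 63.0% (58.0 to 67.6) of OAS2 reads in Mock of experiment 1 and 5.01% (3.23 to 7.70) in Mock of experiment 2, against 49.6% and 51.1% in the Myc-TRIM40 libraries. The Myc-TRIM40 libraries were close in this share, and the Mock libraries, with 386 and 379 OAS2 reads, were far apart.

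OAS3 has 1 listed isoform, NM_006187, so its reads do not depend on a split. OASL has 3, and NM_003733, which encodes the full-length protein, held between 86.6% and 90.7% of its reads in every library. NM_198213, a shorter form, held between 8.84% and 12.3%. NM_001261825 had 13 and 22 reads in experiment 1 and 0 in experiment 2.

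**Figure D3:**
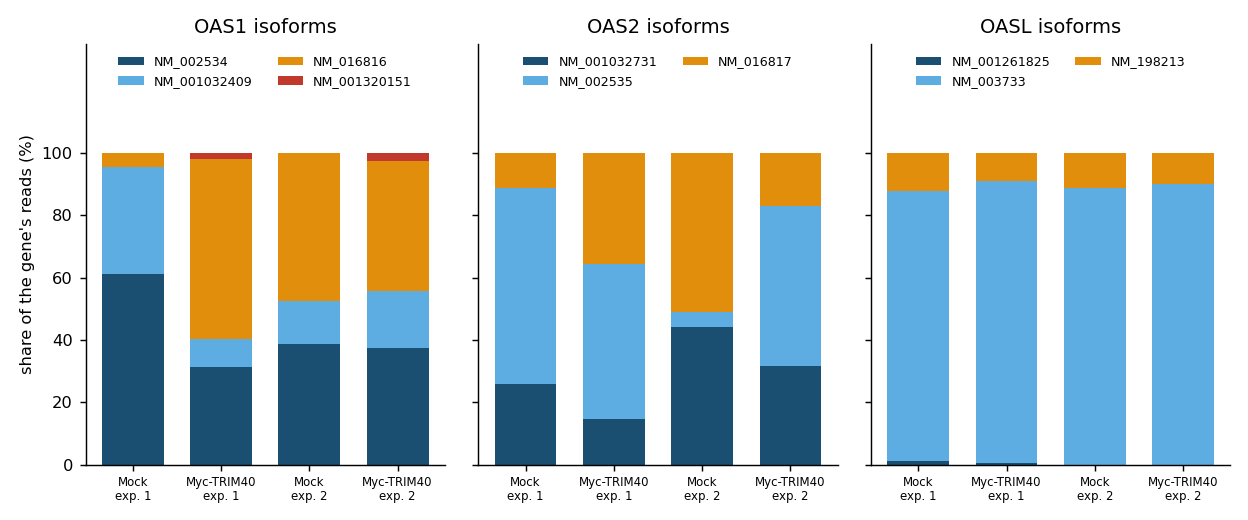
Stacked bars of the share (%) of each gene's reads assigned to each listed isoform, 1 bar per library, for OAS1, OAS2 and OASL. NM_016816 of OAS1 takes 4.42% in Mock of experiment 1 against 41.7% to 57.6% in the other 3 libraries, NM_002535 of OAS2 takes 5.01% in Mock of experiment 2, and OASL keeps 86.6% or more in NM_003733.

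In the edgeR fit over 33773 tested transcripts, 0 of the 11 isoforms passed an adjusted p of 0.05, and that rule called 0% of transcripts. At an unadjusted edgeR p under 0.05, 5 of the 11 were higher, where 1.71% of transcripts were. These were NM_002534, NM_001032409 and NM_001320151 of OAS1, NM_002535 of OAS2 and NM_006187 of OAS3. DESeq2 called 4 of the 11 higher, where it called 0.643% of transcripts, namely NM_001320151, NM_001032731, NM_002535 and NM_006187. NM_002535 had the smallest error of any OAS1 or OAS2 isoform, with a log2 fold change of 5.50 (SE 0.23). The largest errors of the 11 isoforms were those of NM_016816, 2.49, and NM_016817, 3.05. These errors leave out the error of assigning reads between isoforms, and NM_002535 had 19 estimated reads in Mock of experiment 2.

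Of 4 listed genes that act on 2-5A or its pathway, 0 passed the edgeR test in either direction, adjusted or unadjusted. Of all tested genes 4.54% passed unadjusted in either direction, so a count of 0 of 4 is near the background. Their median log2 fold change was -0.04. ABCE1, known as an inhibitor of 2-5A binding, had a log2 fold change of -0.08 (SE 0.21). PDE12, a phosphodiesterase that degrades 2-5A, had 0.01 (SE 0.21), AKAP7, which has a 2-5A-degrading domain, had -0.10 (SE 0.22), and CNP, a cyclic nucleotide phosphodiesterase of the same enzyme superfamily, had 0.25 (SE 0.22).

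Most other sensors of double-stranded RNA had fitted changes in the direction of the OAS genes. Of 8 listed genes 7 were tested, 6 had positive fitted changes, 0 passed an adjusted p of 0.05 in edgeR and 6 passed unadjusted, against 3.41% of tested genes, and DESeq2 called 4, against 0.303%. The list's median log2 fold change was 1.37. EIF2AK2, the kinase PKR that halts translation, went from 10.9 to 35.5 FPKM and from 5.97 to 13.5 FPKM, with a log2 fold change of 1.37 (SE 0.24) and an edgeR adjusted p of 0.174. IFIH1, the sensor MDA5, went from 3.62 to 26.7 FPKM and from 3.27 to 5.95 FPKM. DHX58, the sensor LGP2, went from 2.33 to 13.0 FPKM and from 1.21 to 2.35 FPKM. TLR3, the endosomal receptor, was low throughout, from 0.36 to 1.12 FPKM and from 0.33 to 0.59 FPKM. PRKRA, an activator of PKR named here after its values were seen, was the tested gene with a negative value, -0.16 (SE 0.21).

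Among 15 genes of interferon signalling, 14 were tested and 12 had positive fitted changes, with a median log2 fold change of 0.34. In edgeR 0 passed an adjusted p of 0.05 and 3 of 14 passed unadjusted, against 3.41% of tested genes, and DESeq2 called 2, against 0.303%. IRF9, a subunit of the interferon-stimulated transcription factor, went from 9.17 to 41.4 FPKM and from 8.18 to 15.9 FPKM. USP18, which removes ISG15 and restrains the type I receptor, went from 3.24 to 20.1 FPKM and from 2.66 to 4.88 FPKM. The receptor chain IFNLR1 had a log2 fold change of 0.49 (SE 0.25), and STAT2, another subunit of that factor, had 0.76 (SE 0.24).

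Most interferon genes themselves were at or near 0, and their summed level was highest in Myc-TRIM40 of experiment 1. The ligand list summed to 7.34 FPKM there, against 1.00 FPKM in Mock of that experiment. In experiment 2 the sums were 1.07 FPKM in Mock and 1.06 FPKM in Myc-TRIM40. IFNL1 alone was at 3.27 FPKM in Myc-TRIM40 of experiment 1. Of 21 ligand genes, 14 had 0 reads in all libraries, and IFNE was the 1 gene that passed the filter on low reads, with a log2 fold change of -0.06 (SE 0.37). The 4 ligands with the most reads beside IFNE in any library were named after their values were seen. In Myc-TRIM40 of experiment 1, IFNL1 had 176 reads, IFNL2 65, IFNL3 53 and IFNB1 32, where none of the 4 had more than 8 reads in any other library. That library also held the highest level of every OAS gene, and the part of these ligands in the OAS levels was not tested. Relatives of the OAS enzymes in the nucleotidyltransferase fold did not pass the test, with 0 of 5 unadjusted and a median log2 fold change of 0.17. As 4.54% of all tested genes passed unadjusted in either direction, a count of 0 of 5 is near the background. MB21D1 (cGAS), which makes a cyclic dinucleotide from DNA, was at 5.01 and 5.06 FPKM in experiment 1 and at 5.14 and 7.23 FPKM in experiment 2. Its log2 fold change was 0.17 (SE 0.23), and those of PAPD5, PAPD4 and MB21D2 were 0.18 (SE 0.21), 0.05 (SE 0.21) and -0.02 (SE 0.25).

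Of the neighbouring genes given here, the members themselves aside, 0 passed the edgeR test, adjusted or unadjusted. The unadjusted rule passed 4.54% of all tested genes in either direction. Only PTPN11, RASAL1, CFAP73, P2RX4 and CAMKK2 of those given here were tested, so this count of 0 is near the background. RPH3A, 7897 bases below OAS1, and DTX1, 46133 bases above OAS2, had 0 reads in every library. PTPN11, on the OAS1 side, had a log2 fold change of 0.20, and RASAL1, on the OAS2 side, had 0.40 with 106 to 192 reads per library. CFAP73, with 6 to 31 reads, had 1.60, an unadjusted edgeR p of 0.0547 and an edgeR adjusted p of 0.888. Beside OASL, P2RX4 had a log2 fold change of 0.43 and CAMKK2 0.12, and P2RX7 and MIR1302-1, the latter near OAS1, had 0 reads. Within the cluster, OAS3 lies 6242 bases above OAS1 and 5218 bases below OAS2.

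Profiles over the 4 libraries were compared by the Euclidean distance of centred log2 CPM (reads scaled to library size). OAS1 and OAS3 were the nearest pair of members, with a distance of 0.83, and OAS2 and OASL were the farthest, with 2.84. The 5 tested genes nearest to OAS1 were PARP9, DDX60L, CFB, IFIH1 and HSH2D, at distances between 0.17 and 0.37. PARP9 went from 9.18 to 60.3 FPKM and from 8.13 to 18.2 FPKM, much as OAS1 did. Nearest to OAS2 were SAMD9L, RASGRP3, MX1, UBE2L6 and XAF1, between 0.38 and 0.70. RASGRP3 had 0 reads in both Mock libraries and 98 and 11 reads in Myc-TRIM40 of experiments 1 and 2. SAMD9L had 10 and 13 reads in Mock. For genes with so few reads the distance depends in part on the small count added before the log. MX1, an antiviral GTPase, went from 2.39 to 91.1 FPKM and from 2.02 to 7.83 FPKM. Nearest to OAS3 were DDX60, HCP5, TRANK1, NLRC5 and LAMP3, between 0.25 and 0.68. Nearest to OASL were CSF1, HERC5, DHX58, IGFL2-AS1 and GBP4, between 0.40 and 0.61. No member was among the 5 nearest of another. With log2(FPKM + 1) in place of counts, 1, 2, 1 and 1 of the 5 genes remained for OAS1, OAS2, OAS3 and OASL. Of the 20 genes, 14 had a RefSeq window, and 9 of these held AANNGAAA and 5 held the ISRE. Over the tested genes with a window the shares were 14.7% and 2.30%. The 20 genes were picked for their likeness to the members, and the motif was chosen after the OAS1 and OAS3 windows were seen. What the matches do was not tested.

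**Figure D4:**
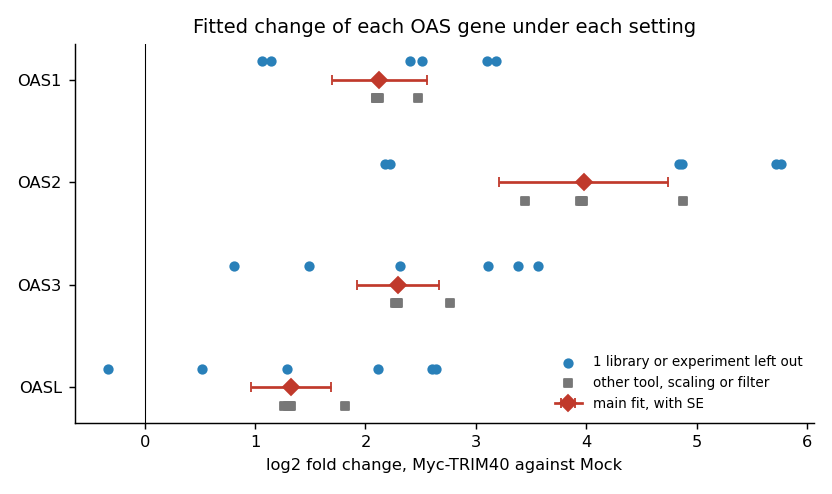
Log2 fold change of Myc-TRIM40 against Mock (horizontal axis) for each OAS gene, with the edgeR fit and its SE (red diamonds), the fits with 1 library or experiment left out (blue circles) and those with another tool, scaling or filter (gray squares). OAS1, OAS2 and OAS3 stay above 0 in all settings shown, between 0.81 and 5.76, and OASL falls to -0.33 without the Myc-TRIM40 library of experiment 1.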

How the data were processed

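RNA from 4 HT-29 libraries was prepared by the authors with the TruSeq Stranded mRNA kit and sequenced on a NovaSeq system. The authors deposited estimated counts for each RefSeq transcript, in whole numbers, together with FPKM and, in experiment 2, TPM. For the other experiment TPM was derived by rescaling FPKM. The submitters' processing notes name HISAT2 2.1.0, StringTie 1.3.4d and hg19, without saying which step each served. Whether counting used the strand is not given in the sources used here. Transcript lengths were also deposited.

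Reads and FPKM were summed per gene. The test was edgeR 4.0.16 (glmQLFit and glmQLFTest, R 4.3.3) with TMM scaling, filterByExpr and Benjamini-Hochberg adjustment over all 14868 genes, or 33773 transcripts, kept. The experiment number was a block, because each deposited file holds 1 Mock and 1 Myc-TRIM40 library. Deviations from the group means of same-numbered libraries correlated at 0.45, with 1 residual degree of freedom. Alternatives were no block, DESeq2 1.42.0, limma 3.58.1 on log2(FPKM + 1), upper-quartile scaling, no filter, and each library or experiment left out. The Mock and Myc-TRIM40 libraries of the same number share an experiment, and only the experiments are separate. With the block, the edgeR p-values rest on how the group difference varied between the experiments, with 1 residual degree of freedom. They also rest on spread borrowed from all genes kept, with a median of 7.44 prior degrees of freedom in the gene fit. The reads per library, given in the report, set the counting error.

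Genes named were all members and isoforms, all 2-5A pathway genes, up to 4 tested genes of each other list by the smaller change of the 2 experiments, those with adjusted p under 0.05 (0 in these lists), the 5 nearest profiles, the 3 nearest genes on each side and TRIM40. Cell type markers were instead named after their values were seen, to show the range of levels and the genes at 0. Members and lists were chosen with earlier results of these data known. Some genes that these rules cover were left out of the lists and are not reported here. Promoter windows, 1 per gene ID, came from RefSeq (GRCh38.p14), and OAS1 and OAS3 of the 4 members matched. OAS2 and OASL had no entry. Python 3.11.15 was used for the rest.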

Additional observations from a re-analysis of the deposited data

How the results depend on the processing

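Of 36 tested alternatives for the 4 genes, 29 kept the direction and the side of the threshold, 6 passed the threshold that the main edgeR fit missed and 1 changed sign. The other 8, each with 1 experiment left out, have no test and kept the sign. DESeq2 gave log2 fold changes of 2.1 for OAS1 and 2.27 for OAS3 and passed both, which made 2 members and 4 isoforms called higher. With each library or experiment left out in turn, the log2 fold change ranged from 1.06 to 3.18 for OAS1, from 2.17 to 5.76 for OAS2, from 0.81 to 3.56 for OAS3 and from -0.33 to 2.64 for OASL. The number of members called ranged from 0 to 4, with 4 only without the Myc-TRIM40 library of experiment 2, where 97 of all tested genes were called. The fits with 1 library left out have no block, and a lone library is assumed to vary like the other group. The cause was not tested.

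Without the replicate block the log2 fold changes were 2.48, 4.88, 2.76 and 1.81 for OAS1, OAS2, OAS3 and OASL, the edgeR adjusted p was 0.9998 for each and 0 members were called, so the block changed no call of a member. The genes called higher among all tested were 6 with the block, 0 without it, 45 with DESeq2, 3 with limma on log2(FPKM + 1), 5 with upper-quartile scaling and 0 with no filter. With Mock of experiment 1, Myc-TRIM40 of experiment 1, Mock of experiment 2 or Myc-TRIM40 of experiment 2 left out they were 37, 10, 8 and 97. Of 40 isoform shares, 24 stayed inside their counting interval when taken from FPKM, and the largest move was 13.3 percentage points. Of 32 tested alternatives for isoforms, 28 kept direction and side and 4 passed the threshold, all 4 in DESeq2. The other 22 have no adjusted p and kept the sign. Mock read counts were low for OAS2, 386 and 379 reads, and for its isoforms, down to 19.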
